A study of Mus musculus with 13 samples.

Results

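The genes described here encode the proteases that cut the extracellular matrix and cell-surface proteins, their relatives without a protease domain, and the tissue inhibitors that block them. Members were all genes whose symbol was Mmp, Timp, Adam, Adamts or Adamtsl followed by a number (with or without a letter) and whose count was at least 10 in at least 2 libraries. This gave 61 members out of 71 genes with such a symbol and 27141 genes in the table. They were 18 matrix metalloproteinases, of which 5 are membrane-type enzymes (Mmp14, Mmp15, Mmp16, Mmp17 and Mmp24), 4 Timp genes, 17 Adam genes, 17 Adamts genes and 5 Adamtsl genes. The 10 genes left out by the count rule were Adam2, Adam3, Adam25, Adam30, Adamts8, Mmp1a, Mmp1b, Mmp20, Mmp21 and Mmp25.

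RNA was sequenced from damaged hepatocytes (dHeps) of wild-type mice whose livers had been injured with carbon tetrachloride (CCl4). The livers were perfused with collagenase and pronase, and the cells were plated on rat tail collagen and kept for 16 days in serum-free hepatocyte medium. The medium held the solvent DMSO, a cocktail of 5 compounds (5C), or 5C without 1 of them: GSK429286A, an inhibitor of the kinase ROCK (5C-G), CID755673, an inhibitor of protein kinase D (5C-C), ETC-1002, an activator of AMPK (5C-E), forskolin, an activator of adenylate cyclase (5C-F), or the plant glycoside Salidroside (5C-S). There were 2 libraries (A and B) per group and 1 for 5C-S, lettered in the order of the table columns. The study's methods say that n stands for separate biological replicates, and the labels do not say whether the libraries of a group came from separate mice or only from separate cultures, so the p-values measure the spread between these libraries.

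Matrix metalloproteinases are made as inactive proenzymes and are opened by other proteases, among them plasmin and the membrane-type enzymes. Timp proteins bind the active site of these enzymes and hold them shut. ADAM proteases sit in the plasma membrane and release growth factors and receptors from it, whereas ADAMTS proteases are secreted and cut proteoglycans and procollagens. In the injured liver this system is known to set how much scar matrix is kept or removed, and stellate cells, macrophages and hepatocytes all contribute to it.

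Total counts per library ran from 30195867 to 45491932. All 7 hepatocyte markers on a fixed list (Alb, Ttr and Hnf4a among them) were above 3 counts in every group, and their summed level ran from 3020 FPKM (fragments per kilobase of gene length, scaled to the library total) in a 5C-E library to 21500 FPKM in a 5C-F library. Macrophage markers were present in every group as well, and 10 of them summed to between 4820 and 4860 FPKM in DMSO, 512 and 591 FPKM in 5C, and 4790 and 6740 FPKM in 5C-G. In such bulk samples fewer cells of a type and less RNA per cell cannot be told apart. In the 4 replicated groups that lacked a compound, libraries A and B differed by GC content. Across 12500 genes with a mean of at least 1 FPKM, the ratio of B to A rose with a gene's GC percentage with a Spearman rho of 0.54 in 5C-E, 0.52 in 5C-F, 0.39 in 5C-G and 0.26 in 5C-C, against -0.06 in DMSO and 0.04 in 5C. Across the 40 members at that level these rho values were 0.57, 0.52, 0.38 and 0.53. These are descriptions across genes, which are not independent replicates. Calls that ended when GC content and gene length were modelled are named beside the gene.

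The members spanned a wide range of levels. Among them 17 had a mean over libraries of at least 10 FPKM, and 18 stayed under 1 FPKM in every library. The highest means were those of Timp1 (667 FPKM), Timp2 (428 FPKM), Mmp7 (139 FPKM), Mmp14 (111 FPKM) and Adam9 (81.9 FPKM). Mmp9, a gelatinase of neutrophils and macrophages, lay between 0.123 and 0.363 FPKM in the 13 libraries, and the collagenase Mmp13 between 0.0244 and 0.470 FPKM. Neither had a call in any comparison. The heatmap of members by library shows the levels of the 43 members that reached 1 FPKM in a library.

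**Figure D1:**
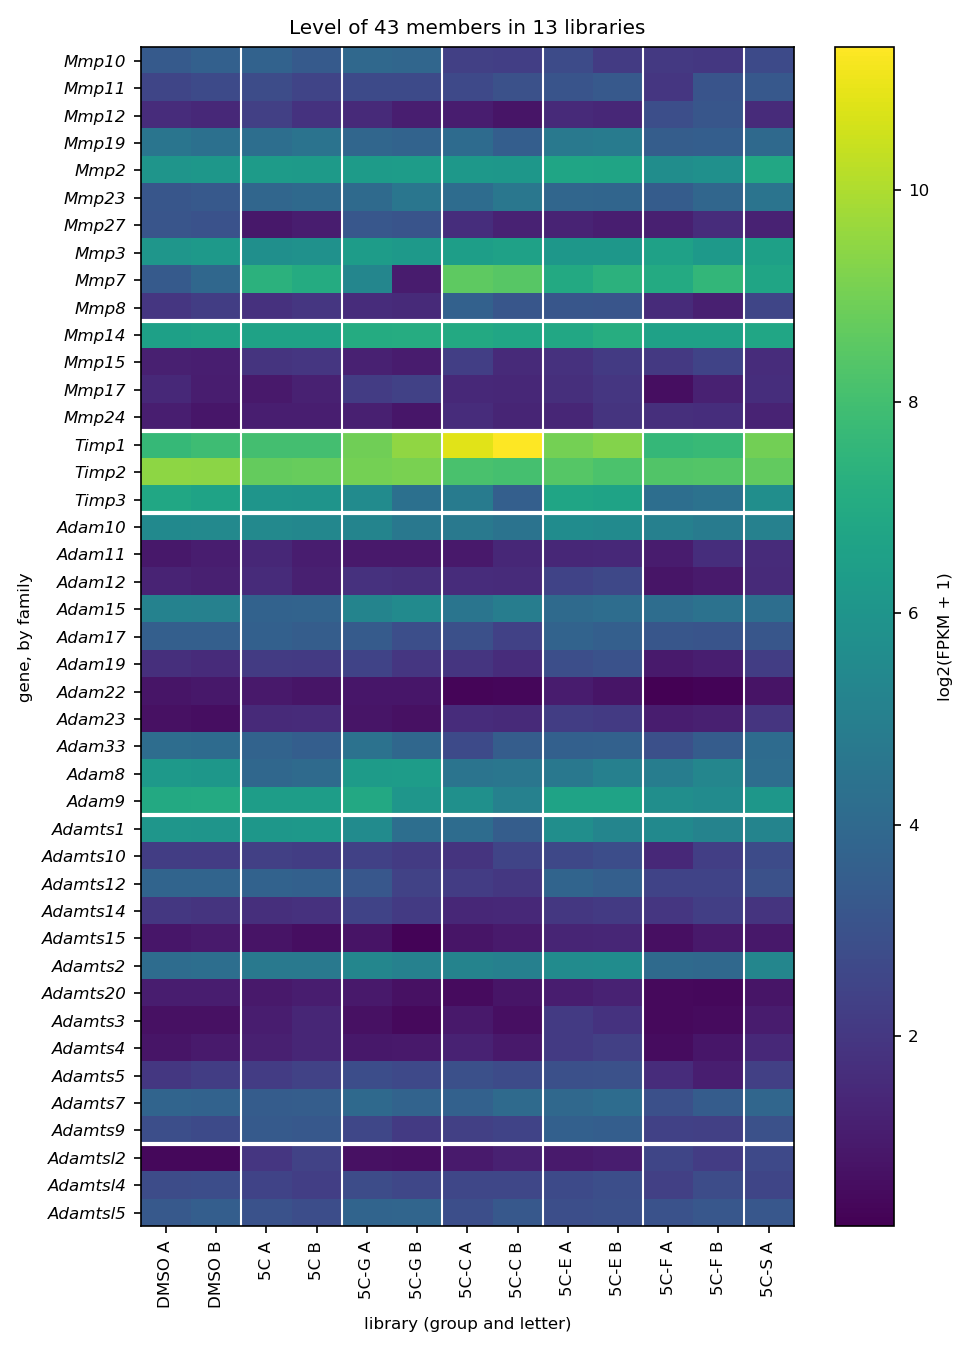
Level of the 43 members that reached 1 FPKM in at least 1 library (rows, by family, separated by white lines) in the 13 libraries (columns), as log2(FPKM + 1). Timp1 in the 5C-C libraries and Timp2 in the DMSO libraries are the brightest cells of their groups, and Mmp7 differs between libraries A and B of 5C-G.

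A member was called when the edgeR quasi-likelihood test, adjusted over 19884 genes by the Benjamini-Hochberg method, gave p under 0.05 and the log2 fold change lay beyond 1. Over the 6 groups with 2 libraries, 43 of the 61 members differed somewhere at an adjusted p under 0.05, where 45.6% of all genes did, so the share of members was 70.5%. These 43 held all 4 Timp genes and all 5 membrane-type enzymes, 9 of 13 other Mmp genes, 10 of 17 Adam genes, 11 of 17 Adamts genes and 4 of 5 Adamtsl genes.

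To ask which members the cocktail itself moves, 5C was compared with DMSO. Here 4 members were higher and 3 lower, with 1.66% of all genes called higher and 2.89% called lower. For the removal of each compound, 5C was the reference, so these comparisons share the 5C libraries with each other and with the comparison against DMSO. Without GSK429286A, 6 members were higher and 6 lower (all genes: 7.47% and 5.64%). Without CID755673, 3 were higher and 9 lower (9.65% and 10.5%). Without ETC-1002, 4 were higher and 2 lower (0.654% and 1.31%). Without forskolin, 2 were higher and 11 lower (2.69% and 2.15%). Between 5C-G and 5C-C, 10 members were higher in 5C-G and 5 lower (4.14% and 3.21%).

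In percent of the 61 members, the called-higher share in 5C-E was 6.56% and the called-lower share in 5C-F was 18.0%. The former was the larger multiple of its background. In percentage points, the gap to the background was widest among these comparisons for the called-lower share in 5C-F. Its 11 lower calls became 5 without library B of 5C or B of 5C-F, and 3 with limma on log2(FPKM + 1). The called-higher share in 5C-C was 4.92% and lay under its background. The median log2 fold change of the members was -0.40 for 5C-F and 0.32 for 5C-E, with medians over all genes of -0.01 and 0.01. For the other 4 comparisons the members' median lay between -0.27 and 0.10. Over the 5 comparisons other than that of 5C-G with 5C-C, 34 members had no call, 10 had 1, 12 had 2, 4 had 3 and 1, Adamtsl2, had 4.

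**Figure D2:**
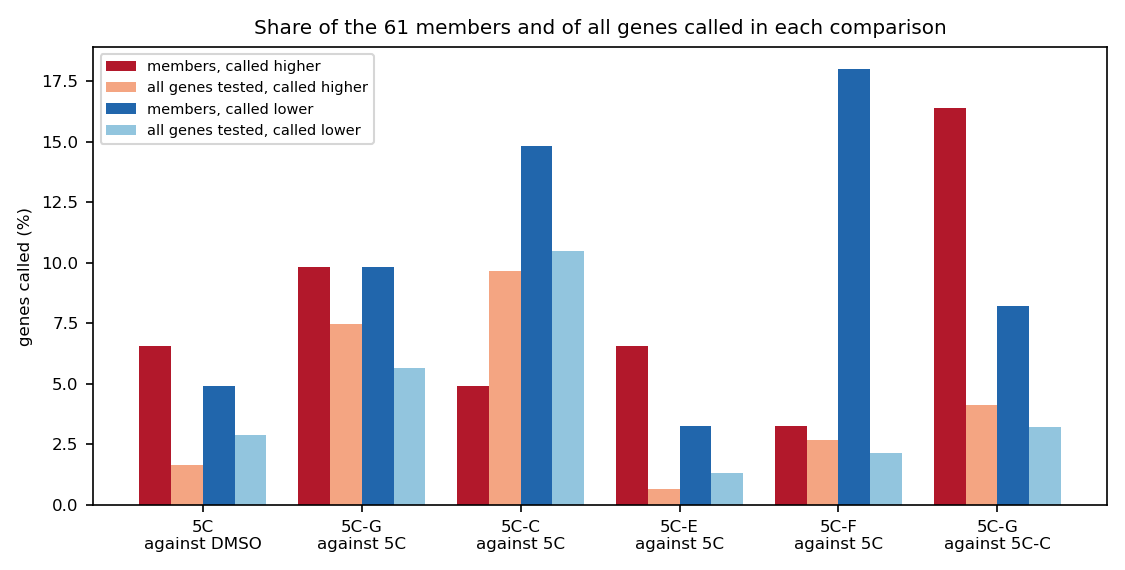
Percent of the 61 members (dark bars) and of all 19884 genes tested (pale bars) called higher (red) or lower (blue) in each of the 6 comparisons. The share of members called lower in 5C-F, 18.0%, stands beside 2.15% of all genes.

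Of the inhibitors, Timp1 had the most calls. Timp1, a secreted inhibitor that is known to be made by activated stellate cells and stressed hepatocytes, was at 204 and 235 FPKM in DMSO and at 257.3 and 257.4 FPKM in 5C. It was at 1835 and 2621 FPKM in 5C-C, at 493 and 721 FPKM in 5C-G, at 527 and 614 FPKM in 5C-E, at 196 and 211 FPKM in 5C-F, and at 498 FPKM in the 5C-S library. Both 5C-C libraries were thus above all 11 others, and neither 5C-G nor 5C-E overlapped 5C.

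Against 5C, Timp1 rose by 3.28 ± 0.24 on the log2 scale (SE, adjusted p = 3.52e-07, a 9.74-fold change) without CID755673, by 1.39 ± 0.22 (adjusted p = 0.000327) without GSK429286A, and by 1.08 ± 0.22 (adjusted p = 0.0117) without ETC-1002. The difference between 5C-G and 5C-C was itself called, at -1.89 ± 0.23 (adjusted p = 3.08e-05). Against DMSO the value for 5C was 0.15 ± 0.22 (adjusted p = 0.802), and without forskolin it was -0.24 ± 0.22 (adjusted p = 0.527). The 5C-G call ended with the GC and length correction, which gave 0.78 (adjusted p = 0.000991, under the fold threshold), and without library B of 5C-G, at 0.98. The 5C-E call ended without either 5C library (adjusted p = 0.151 and 0.111) and without library B of 5C-E (0.190).

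Timp2, which is made constitutively and takes part in the activation of pro-Mmp2 at the cell surface, had another order of levels. It was highest in DMSO, at 697 and 681 FPKM, and was at 425 and 439 FPKM in 5C, 520 and 560 FPKM in 5C-G, 282 and 265 FPKM in 5C-C, 339 and 291 FPKM in 5C-E, 322 and 333 FPKM in 5C-F and 413 FPKM in 5C-S. The order of group means was DMSO, 5C-G, 5C, 5C-S, 5C-F, 5C-E and 5C-C, and the ranges of neighbouring groups overlapped only for 5C-F and 5C-E. Timp2 was lower in 5C than in DMSO by 0.75 ± 0.15 on the log2 scale (adjusted p = 0.00471), lower in 5C-C than in 5C (-0.49 ± 0.15, adjusted p = 0.0179) and higher in 5C-G than in 5C (0.46 ± 0.15, adjusted p = 0.0341), all under the fold threshold.

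As a result the ratio of Timp1 to Timp2, both in FPKM, was 0.293 and 0.346 in DMSO, 0.606 and 0.587 in 5C, 0.607 and 0.632 in 5C-F, 0.948 and 1.29 in 5C-G, 1.20 in 5C-S, 1.55 and 2.11 in 5C-E, and 6.51 and 9.87 in 5C-C. Timp1 made up 85.5% and 90.5% of the summed Timp level in 5C-C and 20.1% and 23.1% in DMSO. The summed level of the 4 inhibitors was 2146 and 2897 FPKM in 5C-C, against 746 and 758 FPKM in 5C.

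Timp3 differs from the others in that it binds the matrix and also blocks Adam17 and several ADAMTS enzymes. Its levels were 115 and 101 FPKM in DMSO, 64.1 and 61.4 FPKM in 5C, 47.5 and 18.8 FPKM in 5C-G, 27.9 and 11.1 FPKM in 5C-C, 107 and 99.9 FPKM in 5C-E, 17.7 and 19.97 FPKM in 5C-F, and 51.4 FPKM in 5C-S. Both libraries of 5C-C and of 5C-F lay under all those of DMSO, 5C, 5C-E and 5C-S, while the 5C-G pair was spread widely. Timp3 fell by 1.54 ± 0.34 on the log2 scale (adjusted p = 0.00191) without CID755673 and by 1.64 ± 0.34 (adjusted p = 0.00664) without forskolin. The forskolin call ended without library B of 5C (adjusted p = 0.0544), A of 5C-F (0.0512) or B of 5C-F (0.0561). In 5C-E, Timp3 was 0.65 ± 0.33 from 5C (adjusted p = 0.382), and in 5C-G -0.83 ± 0.33 (adjusted p = 0.0766). In 5C it was -0.86 ± 0.33 from DMSO (adjusted p = 0.162).

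Timp4 was the low member of the family, at no more than 0.469 FPKM in any library. Timp4 shares up to 1052 bases of exon with Syn2 on the opposite strand, and Timp3 shares up to 1734 with Syn3. Strand handling during counting was not stated, so reads of the pairs could be mixed. Syn3 had 404 counts over all libraries, which is small beside Timp3, but Syn2 had 1334 beside 369 for Timp4, so the level of Timp4 is uncertain.

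**Figure D3:**
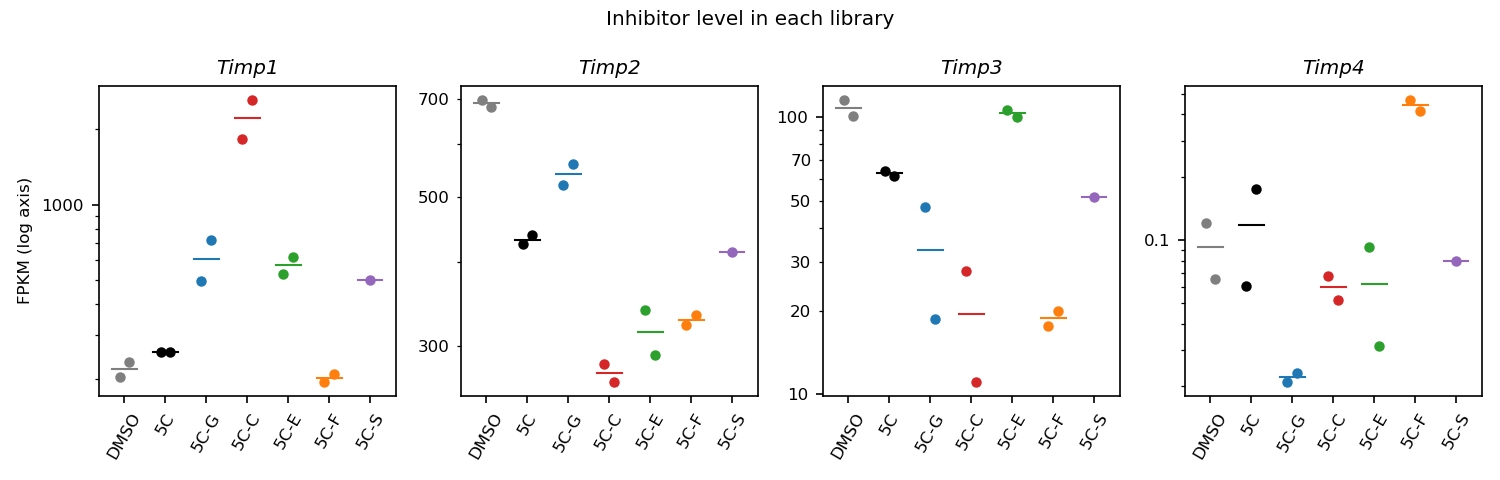
Level of the 4 Timp genes (FPKM, log axis, each panel with its own range) in every library, by group; points are libraries and bars are group means. Timp1 is highest in the 5C-C libraries (1835 and 2621 FPKM) and Timp2 is highest in DMSO.

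Of the Mmp genes, 10 lie in 1 stretch of 427.1 kb on chromosome 9 (GRCm39, first start 7272514), and 7 of them were members: Mmp13, Mmp12, Mmp3, Mmp10, Mmp8, Mmp27 and Mmp7, in this order, all on the plus strand. The cluster is known for start regions with a binding sequence for the transcription factor AP-1 shortly before the start site. The 100 bases before the start are shown for these 7 genes because 5 of them (Mmp12, Mmp10, Mmp8, Mmp27 and Mmp7) were called in at least 1 comparison. They come from RefSeq on GRCm38.p6, plus strand, 5′ to 3′, and capitals mark the AP-1 letters TGANTCA, which read the same on both strands.

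Mmp13, chr9:7272414-7272513: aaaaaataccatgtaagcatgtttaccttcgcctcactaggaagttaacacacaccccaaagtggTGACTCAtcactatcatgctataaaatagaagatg
Mmp12, chr9:7347274-7347373: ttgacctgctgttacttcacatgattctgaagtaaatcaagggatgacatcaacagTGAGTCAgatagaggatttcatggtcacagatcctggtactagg
Mmp3, chr9:7445722-7445821: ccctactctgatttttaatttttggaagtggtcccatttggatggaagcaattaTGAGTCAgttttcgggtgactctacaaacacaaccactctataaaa
Mmp10, chr9:7502242-7502341: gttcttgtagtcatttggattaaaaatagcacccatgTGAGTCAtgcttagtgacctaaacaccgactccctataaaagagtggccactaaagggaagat
Mmp8, chr9:7558329-7558428: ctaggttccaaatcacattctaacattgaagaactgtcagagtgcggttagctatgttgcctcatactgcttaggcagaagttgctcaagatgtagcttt
Mmp27, chr9:7571296-7571395: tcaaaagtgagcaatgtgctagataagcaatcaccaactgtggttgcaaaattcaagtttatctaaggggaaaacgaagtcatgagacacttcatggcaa
Mmp7, chr9:7691990-7692089: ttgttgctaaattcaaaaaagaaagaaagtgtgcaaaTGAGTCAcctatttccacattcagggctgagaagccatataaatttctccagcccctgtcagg

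The letters begin 35 bases before the listed start of Mmp13, 44 before that of Mmp12, 46 before that of Mmp3, and 63 before those of Mmp10 and Mmp7. Mmp12 and Mmp7 each have 2 listed starts, and the one holding the letters is shown. Mmp8 and Mmp27 do not hold them in this window. RefSeq promoter windows of 300 bases (250 before and 50 after the start) were matched for 39 of the 61 members. These members had 44 such windows. The letters occurred in 6 of the 44, 1 for each of the 5 genes above and Adam19, and in 7.81% of 32851 windows of all genes. In the 100 bases before the start, 2.73% of the windows of all genes held them. A match is a description of letters and not of binding, and the genes that hold it did not move together, as the values below show.

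Mmp7, matrilysin, is a small metalloproteinase of epithelia. It was at 9.31 and 14.4 FPKM in DMSO and at 163 and 133 FPKM in 5C. It was at 382 and 352 FPKM in 5C-C, 126 and 163 FPKM in 5C-E, 127 and 193 FPKM in 5C-F, 108 FPKM in 5C-S, and 39.2 and 1.08 FPKM in 5C-G. DMSO and 5C-G were below all other groups, and by ratio the 5C-G libraries differed from each other more than the DMSO libraries differed from the 5C libraries. Mmp7 rose by 3.57 ± 0.78 on the log2 scale (adjusted p = 0.00788) in 5C against DMSO and fell by 2.83 ± 0.75 (adjusted p = 0.0109) without GSK429286A. Leaving out either DMSO library ended the former call (adjusted p = 0.127 and 0.0600), as did limma on log2(FPKM + 1) (3.56, adjusted p = 0.0772), and leaving out library A of 5C (0.0520) or fitting only the 2 groups (0.0830) ended the latter. The size of the 5C-G change rested on single libraries, at -6.87 without library A of 5C-G and -1.87 without library B. Between 5C-G and 5C-C the difference was -4.30 ± 0.80 (adjusted p = 0.00162), and -8.35 without library A of 5C-G. Mmp7 alone made up 31.2% and 35.8% of the summed Mmp level in 5C, 52.2% and 51.1% in 5C-C and 3.15% and 4.57% in DMSO.

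Epcam, a surface protein of bile duct and progenitor cells on the cholangiocyte list, was at 1.63 and 1.39 FPKM in DMSO, 18.4 and 11.9 FPKM in 5C, 6.10 and 0.249 FPKM in 5C-G, and 24.6 and 17.2 FPKM in 5C-C. It thus shared the gap between the 5C-G libraries. The sum of all 5 cholangiocyte markers did not: it was 110 to 112 FPKM in DMSO, 121 to 134 in 5C, 151 to 178 in 5C-G and 275 to 300 in 5C-C. Most of that sum was Krt19 and Krt7. These were higher in 5C-G than in 5C (0.73, adjusted p = 0.00884, and 0.82, adjusted p = 0.00575), under the fold threshold. Sox9 (-1.46, adjusted p = 0.000212) and Epcam (-2.20, adjusted p = 0.0254) were called lower there, and Cftr was at -2.54 without a call (adjusted p = 0.0916). The part of these cells in the Mmp7 values was not tested.

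Mmp27, a little-studied member with a C-terminal membrane-retention signal, was at 7.88 and 7.19 FPKM in DMSO and at 8.30 and 7.63 FPKM in 5C-G. It was between 0.890 and 2.17 FPKM in all 9 other libraries. It fell by 2.95 ± 0.32 on the log2 scale (adjusted p = 7.24e-06) in 5C against DMSO, rose by 3.09 ± 0.32 (adjusted p = 5.09e-06) without GSK429286A, and was 2.12 ± 0.31 (adjusted p = 0.000175) higher in 5C-G than in 5C-C.

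Mmp8, the collagenase of neutrophils, was at 2.91 and 3.72 FPKM in DMSO, 2.45 and 2.87 FPKM in 5C, 11.8 and 8.21 FPKM in 5C-C, and 7.99 and 7.89 FPKM in 5C-E. It was at 2.05 and 1.90 FPKM in 5C-G, 1.98 and 1.25 FPKM in 5C-F and 4.81 FPKM in 5C-S. It rose by 2.07 ± 0.29 (adjusted p = 7.66e-05) without CID755673 and by 1.51 ± 0.28 (adjusted p = 0.00542) without ETC-1002, and was lower in 5C-G than in 5C-C by 2.36 ± 0.29 (adjusted p = 3.60e-05). The 5C-E call ended without library A of 5C (adjusted p = 0.126) or B of 5C-E (0.0614). The 7 neutrophil markers summed to 7.51 to 8.96 FPKM in 5C-C, 2.66 to 4.26 in 5C-E, 2.90 to 4.37 in DMSO, 2.40 to 3.97 in 5C-G, 1.82 in 5C-S, 0.714 to 1.29 in 5C and 0.727 to 0.834 in 5C-F. Single markers differed: S100a8 was at 2.52 and 4.25 FPKM in DMSO and 1.88 and 3.79 FPKM in 5C-G, near its 3.72 and 3.92 FPKM in 5C-C. Ltf was at 5.16 and 2.79 FPKM in 5C-C and 0.366 and 1.18 FPKM in 5C-E, and at no more than 0.225 FPKM in the other 9 libraries. Both were called higher in 5C-C (2.50, adjusted p = 0.00543, and 4.55, adjusted p = 0.000884), and Ly6g was at 3 counts or fewer in every group. Their part in the Mmp8 values was not tested.

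Mmp10, stromelysin-2, is an activator of other proenzymes. It was at 9.41 and 11.5 FPKM in DMSO, 11.9 and 9.26 FPKM in 5C, 14.8 and 13.9 FPKM in 5C-G, 3.92 and 3.77 FPKM in 5C-C, 5.66 and 3.40 FPKM in 5C-E, 3.15 and 2.99 FPKM in 5C-F and 5.45 FPKM in 5C-S. The 4 conditions other than 5C-G that lacked a compound were thus below DMSO, 5C and 5C-G in every library. Against 5C it fell by 1.30 ± 0.26 on the log2 scale (adjusted p = 0.00109) in 5C-C, by 1.29 ± 0.26 (adjusted p = 0.00991) in 5C-E and by 1.68 ± 0.26 (adjusted p = 0.00115) in 5C-F. Its value in 5C-G was 1.87 ± 0.26 above that in 5C-C (adjusted p = 0.000145). Without library A of 5C or B of 5C-E the 5C-E call ended (adjusted p = 0.153 and 0.284).

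Mmp12, the elastase of macrophages, was at 6.42 and 8.11 FPKM in 5C-F, above every other library. It was at 3.93 and 2.58 FPKM in 5C, 2.11 and 1.84 FPKM in DMSO, 1.88 and 1.17 FPKM in 5C-G, 1.13 and 0.794 FPKM in 5C-C, 1.88 and 1.68 FPKM in 5C-E and 1.95 FPKM in 5C-S. It rose by 1.26 ± 0.25 (adjusted p = 0.00544) without forskolin and fell by 1.60 ± 0.26 (adjusted p = 0.000213) without CID755673. The forskolin call ended without library B of 5C and, under the fold threshold, with limma on log2(FPKM + 1). The CID755673 call ended with the GC and length correction (-0.72, adjusted p = 0.0271). The 10 macrophage markers summed to 1610 to 1930 FPKM in 5C-F and 948 to 1600 in 5C-C, against 512 to 591 in 5C. They were at 4820 to 4860 FPKM in DMSO and 4790 to 6740 in 5C-G, and their part in the Mmp12 values was not tested. The 3′ end of Mmp12 overlaps 157 bases of Mmp1b on the opposite strand, which had 40 counts in all.

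Mmp3, stromelysin-1, held 52.4 to 96.0 FPKM in all libraries and had no call. In 5C it was -0.42 ± 0.18 from DMSO (adjusted p = 0.212). It was higher than in 5C by 0.91 ± 0.18 in 5C-C (adjusted p = 0.000880), 0.74 ± 0.18 in 5C-F (adjusted p = 0.0161) and 0.64 ± 0.18 in 5C-G (adjusted p = 0.0144), all under the fold threshold. The next member along the cluster, Mmp10, 46.4 kb away with Mmp1a between them, moved in the opposite direction in 5C-C and 5C-F. The plot of the cluster shows these opposite signs.

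**Figure D4:**
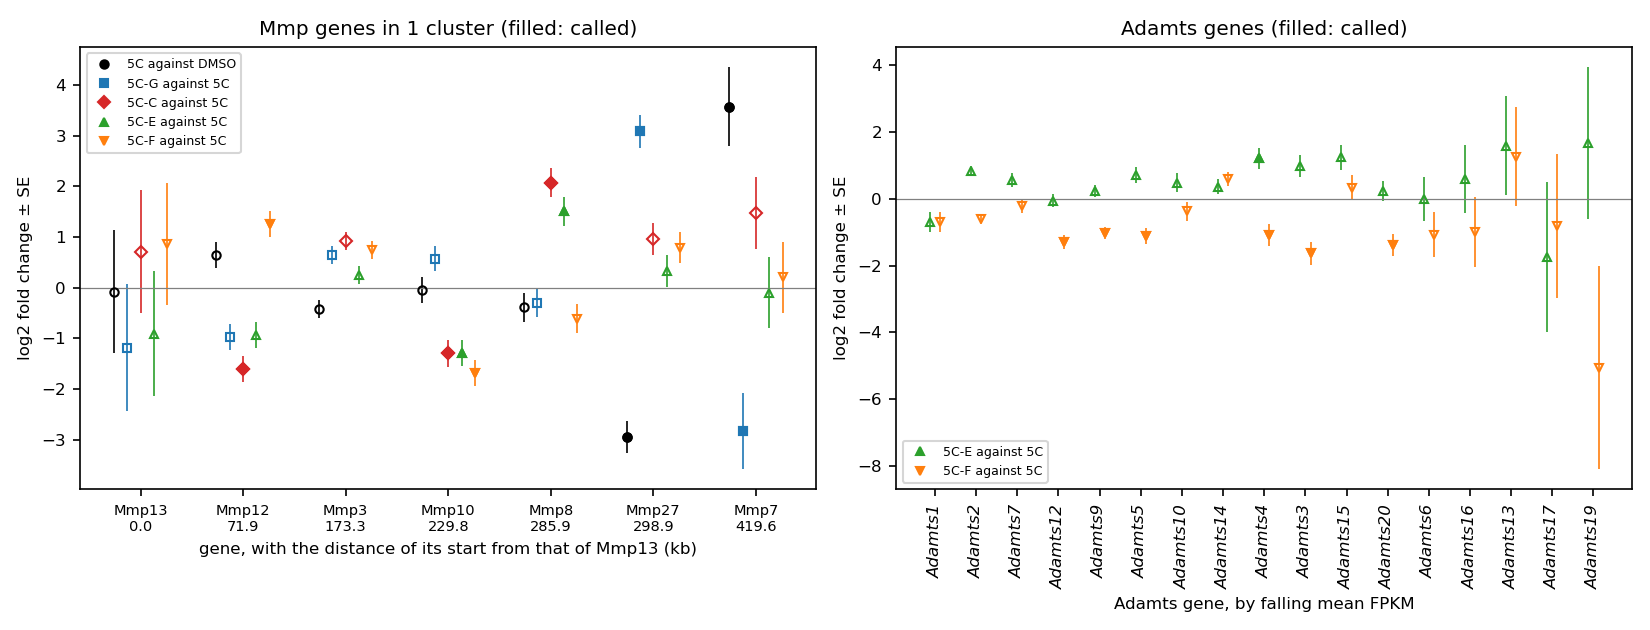
Left, log2 fold change ± SE of the 7 Mmp members of the chromosome 9 cluster in 5 comparisons, with the distance of each start from that of Mmp13 in kb; right, the same for the 17 Adamts genes in 5C-E and 5C-F against 5C, by falling mean level. Filled symbols are called; Mmp27 and Mmp7 have opposite signs in 5C against DMSO (-2.95 and 3.57), and 6 Adamts genes are called lower in 5C-F.

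Outside the cluster, the gelatinase Mmp2 was at 49.9 to 117 FPKM and the membrane-type enzyme Mmp14, which cuts pro-Mmp2 and fibrillar collagen, at 93.4 to 140 FPKM. Neither was called in any comparison. Mmp14 was higher than in 5C by 0.61 ± 0.16 in 5C-G (adjusted p = 0.0101) and by 0.44 ± 0.16 in 5C-C (adjusted p = 0.0381). Mmp2 was at 109 and 103 FPKM in 5C-E and 117 FPKM in 5C-S, above all other libraries, while Mmp19, which is broadly expressed, was at 24.9 and 28.0 FPKM in 5C-E and at 10.3 and 10.6 FPKM in 5C-F. Mmp19 was lower in 5C-F than in 5C by 0.79 ± 0.20 (adjusted p = 0.0191), under the fold threshold. Mmp19 shares 800 bases of exon with Tmem198b on the opposite strand, which had 6730 counts.

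The other membrane-type enzymes were low. Mmp15 was at 1.28 and 1.23 FPKM in DMSO, 2.68 and 2.96 FPKM in 5C, and 1.31 and 1.08 FPKM in 5C-G, and at 1.89 to 4.49 FPKM in the other 7 libraries. It rose by 1.10 ± 0.29 (adjusted p = 0.0314) in 5C against DMSO and fell by 1.11 ± 0.29 (adjusted p = 0.0103) in 5C-G against 5C. The first call ended without any one of its 4 libraries (adjusted p = 0.106 to 0.227) and the second without library B of 5C or B of 5C-G (0.0614 and 0.0768). Between 5C-G and 5C-C the Mmp15 difference was -1.28 ± 0.29 (adjusted p = 0.00812), and this call ended without library A of 5C-C (-0.80, adjusted p = 0.0784) or with only the 2 groups fitted (0.0717). Mmp17, which is anchored by a lipid tail, was at 3.48 and 4.06 FPKM in 5C-G, above all other libraries, and rose by 1.87 ± 0.35 (adjusted p = 0.00105). It was also called against 5C-C (1.08 ± 0.34, adjusted p = 0.0483), a call that ended without any one of its 4 libraries (adjusted p = 0.0586 to 0.170), with total counts as the scale (0.0511) and with only the 2 groups fitted (0.0651). Mmp16 was below 0.163 FPKM everywhere, with 2 and 0 counts in 5C-C and 30 and 16 in 5C. The ratio of these counts per total was 0.0369 (95% exact interval 0.00434 to 0.141, counting error only, and too narrow because mates of a pair were mostly counted separately). Its fitted changes were -4.33 ± 1.19 (adjusted p = 0.00894) in 5C-C against 5C and 5.05 ± 1.20 (adjusted p = 0.00964) in 5C-G against 5C-C. The first call ended with the GC and length correction (adjusted p = 0.0581) and without library B of 5C-C (0.0810), and was -7.61 without library A of 5C-C. The second ended without library B of 5C-C (3.94, adjusted p = 0.0795) or with only the 2 groups fitted (0.0770), and was 8.29 without library A of 5C-C.

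Of the called Adam genes, Adam8 had the largest fitted change. This protease of leukocytes was at 73.7 and 68.9 FPKM in DMSO, 14.1 and 15.8 FPKM in 5C, and 79.1 and 81.3 FPKM in 5C-G. It was at 21.6 and 23.2 FPKM in 5C-C, 24.6 and 32.6 FPKM in 5C-E, 29.9 and 39.3 FPKM in 5C-F and 17.3 FPKM in 5C-S. It fell by 2.33 ± 0.19 on the log2 scale (adjusted p = 4.02e-07) in 5C against DMSO, and rose by 2.56 ± 0.19 (adjusted p = 1.99e-07) without GSK429286A and by 1.30 ± 0.19 (adjusted p = 0.000586) without forskolin. In 5C-G it was 1.81 ± 0.19 (adjusted p = 7.08e-06) above 5C-C.

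Adam15, a membrane-anchored protease of endothelial and many other cells, was at 34.2 and 33.8 FPKM in DMSO, 12.1 and 12.4 FPKM in 5C, 37.1 and 46.2 FPKM in 5C-G, and 22.3 and 29.2 FPKM in 5C-C. The remaining 5 libraries lay between 15.6 and 20.5 FPKM, so 5C was below every other group. Adam15 fell by 1.55 ± 0.20 (adjusted p = 4.49e-05) in 5C against DMSO and rose by 1.91 ± 0.20 (adjusted p = 5.09e-06) without GSK429286A and by 1.24 ± 0.20 (adjusted p = 0.000193) without CID755673. The last call ended with the GC and length correction (0.88, adjusted p = 0.000760) and without library B of 5C-C (1.00, at the fold threshold).

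Mmp27, Adam8 and Adam15 shared high levels in DMSO and 5C-G with the macrophage list. Of its 10 markers, 9 were called lower in 5C against DMSO and 9 higher in 5C-G against 5C, with medians of -3.01 and 3.30 on the log2 scale, and 4 and 8 were called higher in 5C-C and 5C-F. None of the 10 was at 3 counts or fewer in a group except Clec4f in the 5C-S library. Single markers of other lists had the same pattern. Thy1, on the stellate cell and fibroblast list, was at 12.8 and 12.3 FPKM in DMSO, 3.03 and 3.86 FPKM in 5C and 13.1 and 13.5 FPKM in 5C-G. Des, on the same list, was at 30.9 and 33.5 FPKM, 15.5 and 15.4 FPKM and 67.3 and 105 FPKM in these groups, and the mesothelial marker Msln at 327 and 309 FPKM, 159 and 179 FPKM and 408 and 456 FPKM. Of the 10 stellate cell and fibroblast markers, Rgs5, Lrat and Pdgfra were called in the opposite directions, higher in 5C against DMSO and lower in 5C-G, where Reln was also called lower. Of the 4 mesothelial markers, Msln alone was called in 5C-G. The part of any of these cells in the values of the 3 members was not tested.

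The noncatalytic Adam22 and Adam23, which bind LGI proteins in nerve tissue, were low. Adam23 was at 0.649 and 0.554 FPKM in DMSO, 1.93 and 1.95 FPKM in 5C, 0.759 and 0.614 FPKM in 5C-G, 2.06 and 1.90 FPKM in 5C-C, 3.66 and 3.23 FPKM in 5C-E, 1.12 and 1.25 FPKM in 5C-F and 2.77 FPKM in 5C-S. It rose by 1.62 ± 0.19 (adjusted p = 1.37e-05) in 5C against DMSO, fell by 1.37 ± 0.18 (adjusted p = 6.47e-05) without GSK429286A, and was 1.56 ± 0.19 lower in 5C-G than in 5C-C (adjusted p = 2.68e-05). The GSK429286A value was -0.84 with the GC and length correction (adjusted p = 0.00109), under the fold threshold, and limma on log2(FPKM + 1) put all 3 differences under it (0.88, -0.80 and -0.82). Adam22 fell by 2.08 ± 0.29 (adjusted p = 0.000523) without forskolin, from 0.974 and 0.769 FPKM to 0.151 and 0.236 FPKM, and by 1.38 ± 0.28 (adjusted p = 0.00110) without CID755673, to 0.270 and 0.323 FPKM. The latter value was -0.47 (adjusted p = 0.251) with the GC and length correction. In 5C-G, at 0.845 and 0.824 FPKM, Adam22 was 1.46 ± 0.28 above 5C-C (adjusted p = 0.00203). Adam22 shares 2684 bases of exon with Sri on the opposite strand, which had 49517 counts, so its level is uncertain.

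Adam12 and Adam19, which are known from mesenchymal cells and are able to shed growth factors, had higher levels in 5C-E. Adam12 was at 4.51 and 5.14 FPKM there, against 1.98 and 1.27 FPKM in 5C, and rose by 1.51 ± 0.22 (adjusted p = 0.000710). Adam19 was at 3.48 and 3.34 FPKM in 5C and at 1.02 and 1.22 FPKM in 5C-F, and was 2.84-fold lower without forskolin (adjusted p = 0.000802). In 5C-E it was at 6.39 and 7.20 FPKM.

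Adam10 and Adam17, the principal sheddases of the cell surface, had no call. Adam10 was at 20.8 to 48.3 FPKM and Adam17 at 4.19 to 12.7 FPKM over all libraries, both lowest in library B of 5C-C. In 5C-C both were lower than in 5C, by 0.69 ± 0.18 for Adam10 (adjusted p = 0.00651) and 0.82 ± 0.21 for Adam17 (adjusted p = 0.00561), under the fold threshold. Adam9, the highest Adam gene, was at 84.4 and 84.2 FPKM in 5C and at 54.7 and 33.6 FPKM in 5C-C (-0.78 ± 0.22, adjusted p = 0.0109). It was at 121 and 66.9 FPKM in 5C-G and was called higher there than in 5C-C (1.04 ± 0.22, adjusted p = 0.00454), as was Adam33 (1.07 ± 0.25, adjusted p = 0.00887), an asthma-linked member of smooth muscle and fibroblasts that lay outside the naming rule and was added after its values were seen. The Adam9 call ended with the GC and length correction (1.00, at the fold threshold), without library A of 5C-G (0.67) or B of 5C-C (0.75), and with only the 2 groups fitted (adjusted p = 0.116). The Adam33 call ended without library A of 5C-G (0.91) or A of 5C-C (0.61) and with only the 2 groups fitted (adjusted p = 0.0940). Adam17 shares 341 bases of exon with Iah1, which had 29189 counts, and Adam9 shares 396 with Tm2d2, which had 46933. Both overlaps are on the opposite strand, so reads of these pairs could be mixed as well.

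**Figure D5:**
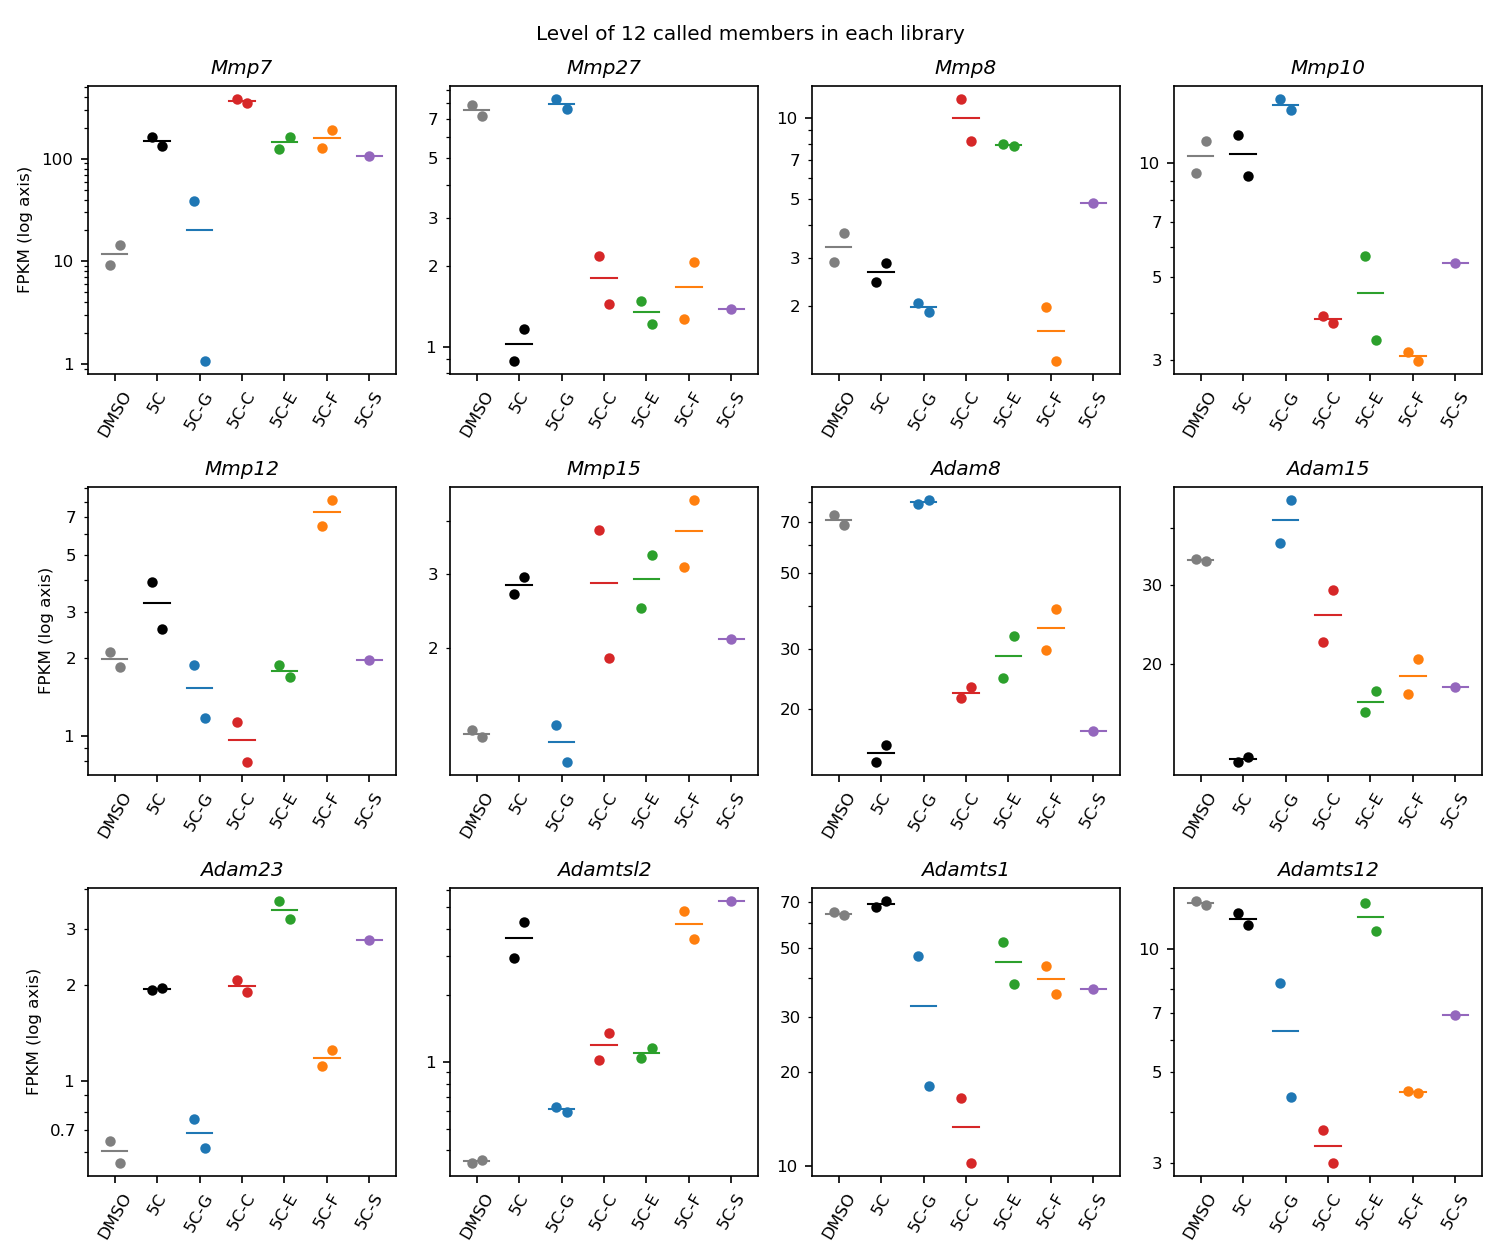
Level of 12 called members (FPKM, log axis, each panel with its own range) in every library by group; points are libraries and bars are group means. Adam8, Adam15 and Mmp27 are high in DMSO and 5C-G, whereas Adamtsl2 is low in both, at 0.352 to 0.626 FPKM.

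The Adamts genes had more calls in 5C-F than in any other comparison. There 6 of 17 were called lower than in 5C, a share of 35.3% beside 2.15% of all genes, 14 of 17 had a negative log2 fold change, and the median was -0.99, with a median over all genes of -0.01. The median was -1.09 with total counts as the scale and -0.68 with the GC and length correction, with 14 negative values in each. The called share was less stable. With the GC and length correction Adamts12, Adamts5 and Adamts9 lay under the fold threshold. The calls of Adamts3, Adamts20, Adamts4, Adamts5 and Adamts9 ended without certain single libraries, as given beside each gene. In 5C-E, by contrast, 14 of 17 had a positive value, the median was 0.57, and 1 was called higher (all genes 0.654%); with the GC and length correction the median was 0.20 with 13 positive. The 10 stellate cell and fibroblast markers summed to 216 to 284 FPKM in 5C-F, 392 to 397 in 5C and 462 to 499 in 5C-E, with no marker at 3 counts or fewer in a group. Most of that sum was Lox, at 318 and 313 FPKM in 5C, 219 and 150 FPKM in 5C-F and 402 and 362 FPKM in 5C-E. None of the 10 was called in 5C-F, where 6 had a positive value and 4 a negative one and the median was 0.04, and in 5C-E Des was called higher and Reln lower. Their part in the Adamts values was not tested.

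The genes called lower in 5C-F were Adamts3, Adamts20, Adamts12, Adamts5, Adamts4 and Adamts9 (the last lay outside the 12 named by the rule and was added after its values were seen). Adamts3, a procollagen N-proteinase, went from 1.14 and 1.66 FPKM in 5C to 0.381 and 0.465 FPKM, a fall by 1.63 ± 0.34 (adjusted p = 0.00689). It also fell by 1.34 ± 0.33 (adjusted p = 0.00743) without GSK429286A and was at 3.27 and 2.52 FPKM in 5C-E. The 5C-F call ended without library B of 5C (adjusted p = 0.109), and the 5C-G call without B of 5C (0.0840) or B of 5C-G (0.0810). Adamts12, which cuts COMP, went from 12.3 and 11.4 FPKM in 5C to 4.50 and 4.45 FPKM in 5C-F (-1.30 ± 0.21, adjusted p = 0.00129) and to 3.62 and 3.01 FPKM in 5C-C (-1.68 ± 0.21, adjusted p = 4.19e-05). With the GC and length correction both lay just under the fold threshold (-0.94 in 5C-F, adjusted p = 0.000693).

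Adamts20, a versican-cutting enzyme of pigment-cell development, went from 0.940 and 1.13 FPKM in 5C to 0.382 and 0.357 FPKM in 5C-F (-1.38 ± 0.32, adjusted p = 0.0122). This call ended without library A of 5C (adjusted p = 0.0504), B of 5C (0.123) or B of 5C-F (0.0858). Adamts9, which also cuts versican, went from 9.22 and 8.63 FPKM to 4.19 and 4.05 FPKM (-1.01 ± 0.18, adjusted p = 0.00231), and fell short of the fold threshold with the GC and length correction (-0.67), without library A of 5C (-0.99) and without B of 5C-F (-0.95).

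The aggrecanases Adamts4 and Adamts5, which cut the proteoglycans aggrecan and versican, differed in level. Adamts4 was at 1.28 and 1.67 FPKM in 5C, 0.499 and 0.811 FPKM in 5C-F (-1.08 ± 0.32, adjusted p = 0.0404) and 3.30 and 3.92 FPKM in 5C-E (1.22 ± 0.31, adjusted p = 0.0444). Both Adamts4 calls ended when any one of their libraries was left out (adjusted p = 0.0565 to 0.277 and 0.0897 to 0.469), and that in 5C-E also with the GC and length correction (1.03, adjusted p = 0.0580). Adamts5 was at 3.51 and 4.27 FPKM in 5C and 2.10 and 1.23 FPKM in 5C-F (-1.12 ± 0.23, adjusted p = 0.00742), and the GC and length correction gave -0.71. The call also ended without library B of 5C (adjusted p = 0.108) or B of 5C-F (0.0756). Its neighbour Adamts1, 53.1 kb away on chromosome 16, had a value of -0.70 ± 0.29 (adjusted p = 0.140) in 5C-F; the difference between these genes was not tested.

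Adamts1, a versican-cutting enzyme that also binds VEGF, was at 65.3 and 63.6 FPKM in DMSO, 67.8 and 70.7 FPKM in 5C, 47.2 and 18.1 FPKM in 5C-G, 16.5 and 10.3 FPKM in 5C-C, 52.1 and 38.4 FPKM in 5C-E, 43.9 and 35.7 FPKM in 5C-F and 37.0 FPKM in 5C-S. It was the highest Adamts gene in 5C and fell by 2.22 ± 0.31 (adjusted p = 7.54e-05) without CID755673. Without GSK429286A the value was -0.99 ± 0.29 (adjusted p = 0.0199), just under the fold threshold. Between 5C-G and 5C-C it was 1.22 ± 0.30 (adjusted p = 0.0113), and this call ended without library A of 5C-G (0.50, adjusted p = 0.289) or B of 5C-C (adjusted p = 0.129) and with only the 2 groups fitted (0.116). Adamts2, another procollagen N-proteinase, was at 24.95 and 25.24 FPKM in 5C and at 46.3 and 48.4 FPKM in 5C-E, and passed adjusted p under 0.05 in all 4 removals with 2 libraries, each under the fold threshold, with positive values in 5C-G (0.66), 5C-C (0.59) and 5C-E (0.85) and a negative one in 5C-F (-0.60). Adamts14, which also processes procollagen, was at 4.38 and 3.32 FPKM in 5C-G and at 1.70 and 1.82 FPKM in 5C-C, a difference of 1.09 ± 0.22 (adjusted p = 0.00353). That call ended without library A of 5C-G (0.98) or A of 5C-C (0.95) and with only the 2 groups fitted (adjusted p = 0.0668).

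Adamtsl proteins lack the protease domain and bind fibrillin and latent TGF-beta complexes. Adamtsl2 was called in 4 of the 5 comparisons with 5C or DMSO as reference, more than any other member, and not between 5C-G and 5C-C. Over all 6 comparisons Timp1, Adam8 and Mmp10 also had 4 calls. It was at 0.352 and 0.361 FPKM in DMSO, 2.95 and 4.29 FPKM in 5C, 0.626 and 0.599 FPKM in 5C-G, 1.03 and 1.36 FPKM in 5C-C, 1.04 and 1.17 FPKM in 5C-E, 4.83 and 3.61 FPKM in 5C-F and 5.33 FPKM in 5C-S. The 5C, 5C-F and 5C-S libraries were thus above all others. Adamtsl2 rose by 3.27 ± 0.28 (adjusted p = 5.99e-07, a 9.65-fold change) in 5C against DMSO. It fell by 2.43 ± 0.27 (adjusted p = 8.93e-06) without GSK429286A, by 1.79 ± 0.26 (adjusted p = 0.000595) without ETC-1002 and by 1.44 ± 0.26 (adjusted p = 0.000449) without CID755673. Each of these 4 calls held under every alternative tried.

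Adamtsl5 rose by 1.14 ± 0.20 (adjusted p = 0.000686) without GSK429286A, from 6.96 and 6.16 FPKM to 12.9 and 13.4 FPKM, and this was 0.72 with the GC and length correction. Adamtsl1 was below 1 FPKM everywhere and fell by 1.47 ± 0.37 (adjusted p = 0.0191) without forskolin, a call that ended when any one of its 4 libraries was left out (adjusted p = 0.0589 to 0.121). Without CID755673 it was 2.01-fold lower (adjusted p = 0.0388), just past the fold threshold, and DESeq2 put it at -0.97 (adjusted p = 0.0367), just short of it. The GC and length correction gave -0.75 (adjusted p = 0.116), and the value was -0.49 without library B of 5C-C and -0.99 without either 5C library. Adamtsl3 was at 2 and 0 counts in 5C-G against 22 and 28 in 5C, a ratio of 0.0374 per total (95% exact interval 0.00441 to 0.142), and its fitted change was -4.46 ± 1.26 (adjusted p = 0.0148). That call ended without library B of 5C (adjusted p = 0.0592) or B of 5C-G (0.132), and the value was -7.75 without library A of 5C-G.

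The removal of Salidroside has 1 library and no test. Of the members, 6 lay beyond a log2 difference of 1 from 5C, where 18.9% of all genes did. They were Mmp13, Adam21, Adam4, Adam5, Adamts17 and Adamts19, and none had over 34 counts in a 5C or 5C-S library. Among the 17 members with a mean of at least 10 FPKM, the differences from 5C furthest from 0 were those of Timp1 (0.93 on the log2 scale, at 498 FPKM) and Adamts1 (-0.92, at 37.0 FPKM). At lower levels Mmp10 was at -0.97 and Mmp17 at 0.94. No 5C-S value has a replicate.

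The plasminogen system, which opens pro-Mmps, was followed on a list of 9 genes, all tested. The counts for this and the lists below stand beside the same shares of all genes as those for the members: 1.66% called higher and 2.89% lower in 5C against DMSO, 7.47% and 5.64% in 5C-G, 9.65% and 10.5% in 5C-C, 0.654% and 1.31% in 5C-E, and 2.69% and 2.15% in 5C-F. Its medians lay between -0.17 and 0.30 in the comparisons with 5C or DMSO. Plau, the urokinase, was at 10.2 and 12.4 FPKM in 5C, 5.38 and 3.63 FPKM in 5C-G and 4.13 and 2.47 FPKM in 5C-C, and fell by 1.21 ± 0.27 (adjusted p = 0.00381) and 1.63 ± 0.28 (adjusted p = 0.000309). Its receptor Plaur rose by 1.05 ± 0.26 (adjusted p = 0.00753) in 5C-G. Plasminogen (Plg), a secreted product of hepatocytes, fell by 2.27 ± 0.18 (adjusted p = 7.86e-07) in 5C-C and by 1.35 ± 0.17 (adjusted p = 0.000167) in 5C-E. These were 1 higher and 1 lower of the 9 in 5C-G, 2 lower in 5C-C and 1 lower in 5C-E.

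Of 11 protease activators and other inhibitors, 1 was higher and 1 lower in 5C against DMSO, 4 were lower in 5C-G, 2 higher and 3 lower in 5C-C, 1 higher and 2 lower in 5C-E, and 3 lower in 5C-F. Reck, a membrane-bound inhibitor of Mmp9 and Mmp14, was at 9.18 and 9.02 FPKM in 5C, 5.04 and 3.25 FPKM in 5C-G, 3.50 and 3.11 FPKM in 5C-C and 3.97 and 3.64 FPKM in 5C-F. It fell by 1.02 ± 0.20 (adjusted p = 0.00143), 1.30 ± 0.20 (adjusted p = 0.000162) and 1.16 ± 0.20 (adjusted p = 0.00215). The broad protease trap A2m was at 1.20 and 1.38 FPKM in DMSO, 6.64 and 6.68 FPKM in 5C, 28.5 and 23.0 FPKM in 5C-C and 31.9 and 29.1 FPKM in 5C-E. It rose in 5C against DMSO (2.30 ± 0.20, adjusted p = 7.72e-07), in 5C-C and in 5C-E, and fell in 5C-G (-1.85 ± 0.20, adjusted p = 6.72e-06) and 5C-F (-1.37 ± 0.19, adjusted p = 0.000567). Thbs1, a matrix protein that binds Mmps and activates latent TGF-beta, was lower than in 5C in all 4 tested removals, and went from 214 and 234 FPKM in 5C to 20.6 and 18.4 FPKM in 5C-C (-3.36 ± 0.29, adjusted p = 1.63e-06).

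Of 8 tested regulators of Adam10 and Adam17, 2 tetraspanins, Tspan15 and Tspan17, were called higher in 5C-C against 5C, beside 9.65% of all genes. Of 14 proteins shed by these enzymes, 5 were lower in 5C-C (Notch1, Il6ra, Ereg, Btc and Tgfa; all genes 10.5%), 3 in 5C-G (Btc, Tgfa and Cdh1; all genes 5.64%), and 1 each in 5C-E and 5C-F (Ereg) and in 5C against DMSO (Hbegf). Ereg, a ligand of the EGF receptor, was at 9.29 and 9.54 FPKM in 5C and at 1.62 and 1.16 FPKM in 5C-C (-2.61 ± 0.31, adjusted p = 2.83e-05).

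Of 15 matrix substrates, at most 3 were called in a comparison with 5C or DMSO. Fibronectin (Fn1) was at 777 and 670 FPKM in 5C and fell to 338 and 312 FPKM in 5C-G (adjusted p = 7.41e-05) and to 309 and 366 FPKM in 5C-F (adjusted p = 0.000529), at the fold threshold in both. Versican (Vcan), a substrate of Adamts1 and Adamts4, was at 5.08 and 7.22 FPKM in 5C-E against 1.96 and 1.91 FPKM in 5C (1.60 ± 0.21, adjusted p = 0.000198). Elastin (Eln), a substrate of Mmp12, rose by 1.32 ± 0.24 (adjusted p = 0.00135) in 5C against DMSO and fell by 1.23 ± 0.23 (adjusted p = 0.00123) in 5C-G.

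Of 8 other matrix proteases, 2 were lower in 5C against DMSO, 2 higher in 5C-G, 1 higher and 1 lower in 5C-C, and 1 higher in each of 5C-E and 5C-F. Cathepsin S (Ctss), a lysosomal elastase of macrophages, was at 851 and 874 FPKM in DMSO, 140 and 153 FPKM in 5C and 814 and 760 FPKM in 5C-G. Together with Ctsk it was called lower in 5C against DMSO and higher in 5C-G, and alone it was called higher in 5C-F (1.34 ± 0.17, adjusted p = 0.000273). Bmp1, the procollagen C-proteinase, rose by 1.44 ± 0.20 (adjusted p = 7.66e-05) in 5C-C and by 1.03 ± 0.20 (adjusted p = 0.00652) in 5C-E, whereas its relative Tll1 was called lower in 5C-C (-2.61, adjusted p = 0.00625). Of 11 AP-1 and Ets factors, Jun was lower in 5C than in DMSO (-1.06 ± 0.21, adjusted p = 0.00363) and higher in 5C-G (1.05 ± 0.21, adjusted p = 0.00174). In 5C-G Etv4 was called higher and Ets1 and Ets2 lower, in 5C-C Ets1 was called lower, and none of the 11 was called in 5C-E or 5C-F.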

How the data were processed

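The authors sequenced paired reads (NovaSeq), mapped them to GRCm39 and deposited a count table and an FPKM table. The count values deposited are whole and unscaled, and the authors' FPKM were these counts divided by gene length and column total. The submitters' processing notes name featureCounts, Subread and DESeq2. Strand handling and annotation release were not given in the sources used here. Of the counts from 1 to 20, 71.3% were even, so mates of a pair were mostly counted separately and counting intervals are too narrow. Depth is given as total count per library; intervals cover counting error only.

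The counts were tested with edgeR 4.0.16 in R 4.3.3 (TMM, filterByExpr with minimum count 10, quasi-likelihood test) in 1 fit of all 13 libraries with 6 residual degrees of freedom and 19884 genes; the study's methods name DESeq. The common biological coefficient of variation was 0.261. SE is the log2 fold change divided by the square root of F. The table columns give the group but not which sample of it, so libraries are lettered in column order. All 61 members passed filterByExpr. Adjustment was over all genes, and 5C-S, with 1 library, had no test. The scripts were tested on simulated counts before use. There a log2 change of 1.5 was called in 42% (5C-E) to 59% of the changed genes, and a change of 3 in 98% to 100%. A member without a call may therefore still have changed.

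Members, gene lists and tests were chosen with earlier results of these data known. Named were all called members, up to 12 per comparison by size of change, the members past the fold in 5C-S, a fixed set (Mmp2, Mmp3, Mmp9, Mmp12, Mmp13, Mmp14, Mmp19, Timp1, Timp2, Timp3, Adam10, Adam17, Adamts1) and the 5 of highest mean. Alternatives were total-count scaling, DESeq2 1.42.0, no filter, limma 3.58.1 on log2(FPKM + 1), the 2 groups alone, each library left out, adjusted p alone, and an offset for GC content and length fitted with mgcv 1.9.3; a block on the column number was added after seeing the data. Exon overlaps came from the GENCODE annotation of GRCm39; promoter sequences from RefSeq. Protein sequences were not used here.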

Additional observations from a re-analysis of the deposited data

How the results depend on the processing

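The number of members called (7 in 5C against DMSO, 13 in 5C-F, 6 in 5C-E, 12 in 5C-C and 12 in 5C-G against 5C, and 15 in 5C-G against 5C-C) stayed within 1.5 times of these values with total-count scaling, DESeq2, no filter and the GC and length offset. limma on log2(FPKM + 1) called 4 members in 5C against DMSO, 4 in 5C-F and 8 in 5C-G against 5C-C, and put 0 members past the fold in 5C-S. Its pseudocount makes the changes of low members smaller by construction, but its losses also held Mmp7 in 5C against DMSO (3.56, adjusted p = 0.0772) and Timp3 in 5C-F (-1.69, adjusted p = 0.0518), whose changes were about as large as in edgeR; the cause was not tested there. Fitting the 2 groups alone gave 8 in 5C-G against 5C-C. Adjusted p alone, without the fold threshold, gave 25 in 5C-G, 24 in 5C-C and 10 in 5C-E. Leaving out each library gave 5 to 6 members in 5C against DMSO, 8 to 19 in 5C-G, 11 to 16 in 5C-C, 2 to 6 in 5C-E, 6 to 10 in 5C-F, and 12 to 17 in 5C-G against 5C-C. The 19 arose without library A of 5C-G, the 2 without library A of 5C or B of 5C-E, and the low counts of 5C-F, 6 and 7, without library B of 5C or B of 5C-F; the cause was not tested. Leaving out a 5C library put 7 or 9 members past the fold in 5C-S. None of the log2 fold changes recomputed under the alternatives changed sign. These were those of called members, up to 12 per comparison, of the fixed set and the 5 highest where adjusted p was under 0.05, and of Timp1, Timp2 and Timp3; those of other named members, such as Mmp2, Mmp9 and Mmp13, were not followed in this way. Total-count scaling moved the median log2 fold change of all genes to -0.147 in 5C-C, -0.135 in 5C-G and -0.108 in 5C-F. With 2 libraries per group, an arm left with 1 library was assumed to vary like the other groups. The table columns of each group carry a running number, which does not match the numbers in the labels. Across 13633 genes the difference of B from A in log2 CPM correlated between groups with r from -0.08 to 0.32 (0.32 for 5C-G and 5C-C, 0.27 for 5C-E and 5C-F, -0.01 for DMSO and 5C), so the numbers were not taken to pair the libraries. With a replicate block on that number, chosen after seeing the data and fitted without 5C-S, all the calls above were kept, and the counts became 8 in 5C against DMSO, 7 in 5C-E and 13 in 5C-G against 5C, where Adamts1 was added at -1.08; the other 3 counts did not move.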
